A study of Mus musculus with 3 samples.

Results

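Neurotrophins are secreted growth factors that act through Trk receptor tyrosine kinases and through p75, a receptor of the tumour necrosis factor receptor family. Brain-derived neurotrophic factor (BDNF, gene Bdnf) and neurotrophin 4/5 (Ntf5) bind TrkB, the product of Ntrk2, and neurotrophin 3 (Ntf3) binds mainly TrkC, the product of Ntrk3. The p75 receptor (Ngfr) binds all mature neurotrophins, and together with sortilin (Sort1), a sorting receptor of the VPS10 family, it binds the uncleaved proneurotrophins. In the penis, neurotrophins are known for their part in the survival and regrowth of the nerves that control erection, and endothelial cells can be a source of BDNF. The 7 genes described here were chosen by name. They were read by 14 of the 39429 probes on the array and were 7 of the 20886 genes that could be named.

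The expression data come from 3 microarrays, each with 1 dye, of cultured primary cells labelled as endothelial cells of the cavernous tissue of the penis, from C57BL/6 mice, with vascular endothelial growth factor A in the culture medium. The normal glucose array held cells in 5 mmol glucose (as labelled), the high glucose array cells in 30 mmol glucose, and the DKK2 array cells in 30 mmol glucose with DKK2 (Dickkopf 2), a secreted protein that modulates Wnt signalling. Treatment lasted 48 h, and no dose of DKK2 is given by the labels. Each array held RNA pooled from 3 samples. With a single array for each condition there is no replicate check and no test, and array position on the slide cannot be told apart from the condition.

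The levels below are signals scaled so that the 75th percentile of the probes on each array is 1000, and they compare arrays for 1 probe, not probes with each other. The normal glucose array was dimmer (median signal before scaling 101.8, against 196.2 in high glucose and 204.5 under DKK2), and 76.7% to 84.7% of probes were well above background. A difference is a log2 difference of scaled signals with 1 SD of the scanner's error model, which is technical and leaves out variation between cultures. "At least 2-fold" means a log2 difference of 1 or more in size. Of the 10 endothelial markers checked, 8 were well above background on the normal glucose array, 10 on the high glucose array and 9 on the DKK2 array. Erg was not well above background in normal glucose and under DKK2, and Emcn was not in normal glucose. Several that passed were dim. In normal glucose the signals before scaling were 9.8 for Tie1, 45.7 for Tek and 134.6 for Pecam1, while Kdr (3648) and Eng (2456) were brighter. All 8 fibroblast markers and all 9 smooth muscle and pericyte markers were also well above background on every array. On the normal glucose array Dcn and Acta2 from those lists had signals before scaling of 268191 and 49633. How much of each culture those cells made up was not measured.

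The DNA before annotated starts of 3 members is shown because Ngfr and Ntrk2 read lower with DKK2 while Ntf3 did not. Each run is the 250 bases before an annotated transcription start, from RefSeq (GRCm38.p6), written 5′ to 3′ on the strand of the gene, with the motif matches in capitals.
Ngfr, chr11:95587699-95587948, minus strand: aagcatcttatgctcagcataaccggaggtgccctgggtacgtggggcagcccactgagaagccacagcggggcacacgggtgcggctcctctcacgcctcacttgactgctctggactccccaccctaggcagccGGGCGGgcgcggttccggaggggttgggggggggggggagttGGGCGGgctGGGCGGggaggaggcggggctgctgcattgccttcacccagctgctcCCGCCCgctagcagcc
Ntrk2, chr13:58806319-58806568, plus strand: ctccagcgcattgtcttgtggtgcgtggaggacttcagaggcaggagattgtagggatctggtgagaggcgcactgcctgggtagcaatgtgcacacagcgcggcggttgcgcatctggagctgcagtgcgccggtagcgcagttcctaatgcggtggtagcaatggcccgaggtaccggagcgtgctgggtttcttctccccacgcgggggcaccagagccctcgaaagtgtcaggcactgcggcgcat
Ntf3, chr6:126164961-126165210, minus strand: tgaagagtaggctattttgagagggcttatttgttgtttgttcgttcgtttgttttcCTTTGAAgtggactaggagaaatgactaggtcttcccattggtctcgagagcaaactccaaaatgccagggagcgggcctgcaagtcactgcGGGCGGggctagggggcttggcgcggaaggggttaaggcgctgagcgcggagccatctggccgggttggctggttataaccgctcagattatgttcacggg

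The motifs searched, on both strands, were the TCF/LEF core of Wnt signalling as CTTTGAT and CTTTGAA, the cAMP response element TGACGTCA, the E-box CACGTG and the GC box GGGCGG. Some neighbouring GC boxes lie close together and none of the motifs contains another. The Ngfr window held 4 GC boxes, at 16, 63, 72 and 114 bases before the start, and none of the other motifs. The Ntrk2 window held none of the motifs, and it runs past the outer start of the annotated gene at 58806472. The Ntf3 window shown held 1 CTTTGAA, at 193 bases before the start, and 1 GC box. That window lies inside the annotated gene (126101412 to 126166772), before an internal start. Another Ntf3 window, at the 5′ end of the annotated gene and not shown, held neither CTTTGAT nor CTTTGAA. It held 1 E-box, at 231 bases before its start, and 1 GC box, at 45. Over all 32851 windows of that length, 3.21% held CTTTGAT, 4.46% CTTTGAA, 1.55% TGACGTCA, 6.02% CACGTG and 32.7% GGGCGG. The windows shown had 16 (Ngfr), 19 (Ntrk2) and 14 (Ntf3) CpG dinucleotides, all above the median of 6 over all windows. The table matched 4 of the 7 genes with 11 windows, among them 7 for Bdnf, a gene with many promoters whose single probe here does not separate them. A match is a description of letters and was not tested as a binding site.

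The first comparison addressed whether high glucose changed these genes. None of the 7 was at least 2-fold apart between high and normal glucose, where 2.67% of 16766 genes were at least 2-fold higher and 5.73% at least 2-fold lower. Their median difference was 0.24 and that of all genes 0.09. On the brightest probes, the differences that exceeded their technical SD most were those of Ntf3 and Sort1, which read higher, and of Ngfr, which read lower.

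Among the ligands, Ntf3 read 169.5 in normal glucose, 266.5 in high glucose and 336.2 under DKK2. Its difference between high and normal glucose was 0.65 (SD 0.20), or 1.57-fold, and with normexp background correction it was 0.22. Bdnf read 2862 in normal glucose, 2446 in high glucose and 1964 under DKK2, so its signal was highest in normal glucose and lowest with DKK2. The glucose difference of Bdnf was -0.23 (SD 0.20), close to its technical error. Ntf5 read 54.9, 61.9 and 45.5 in the same order, and its glucose difference of 0.17 (SD 0.21) was below the technical error and was -0.86 with normexp. Each ligand had 1 probe with 1 spot per array, so no second probe bears on these values.

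The Trk receptors were read by 7 probes. All 6 of those measured on both arrays read higher in high than in normal glucose, where 55.4% of all 21965 named probes did. Over the 7 members, 5 genes were above 0 and 2 below, while 56.4% of all genes were above 0 and 43.6% below. The 3 Ntrk2 probes had differences of 0.24, 0.22 and 0.34, within 0.12 of each other. The Ntrk3 probes had differences of 0.27, 0.51 and 0.70, and the fourth was above background in high glucose only. With normexp 4 of the 6 read lower, and over all genes normexp moved the median of this comparison from 0.09 to -0.26. The side of 0 on which Ntrk3 and the dimmest Ntrk2 probe lay thus depended on the background correction.

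The p75 gene Ngfr was read by 1 probe spotted 10 times on each array. Its spots lay between 201.7 and 227.4 in normal glucose, between 118.9 and 150.2 in high glucose and between 50.9 and 61.5 with DKK2, where 1 outlier spot was left out. The spots of the 3 arrays did not overlap, and the order was normal glucose, high glucose and then DKK2. The glucose difference was -0.62 (SD 0.20), or 1.54-fold lower in high glucose, and 12.5% of genes had a lower value. With normexp it was -0.83. Spots of 1 array share the same pooled RNA and show only how well that probe was read.

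**Figure D1:**
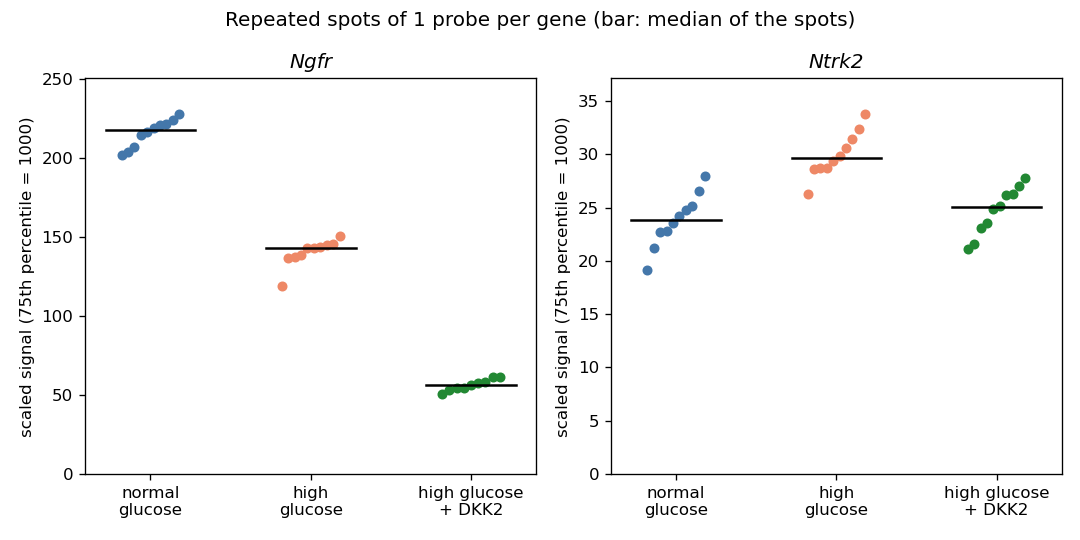
Scaled signal (75th percentile of the array = 1000) of the spots of the Ngfr probe and of the dimmest Ntrk2 probe on the normal glucose, high glucose and DKK2 arrays; each point is a spot and each bar the median. The Ngfr spots of the 3 arrays do not overlap (medians 217.6, 142.7 and 56.0), and those of this Ntrk2 probe overlap in all pairs (medians 23.9, 29.6 and 25.0).

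Sort1 was read by 3 probes. Its brightest probe read 315.6 in normal glucose, 454.2 in high glucose and 661.5 under DKK2. The glucose difference was 0.53 (SD 0.20) on that probe, 0.17 (SD 0.21) on a second probe to the same transcript accession (NM_019972) and 0.08 (SD 0.20) on the probe to NM_001271599. With normexp the first probe was at 0.28 and the other two were below 0. The difference was larger than its technical SD on 1 of the 3 probes.

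**Figure D2:**
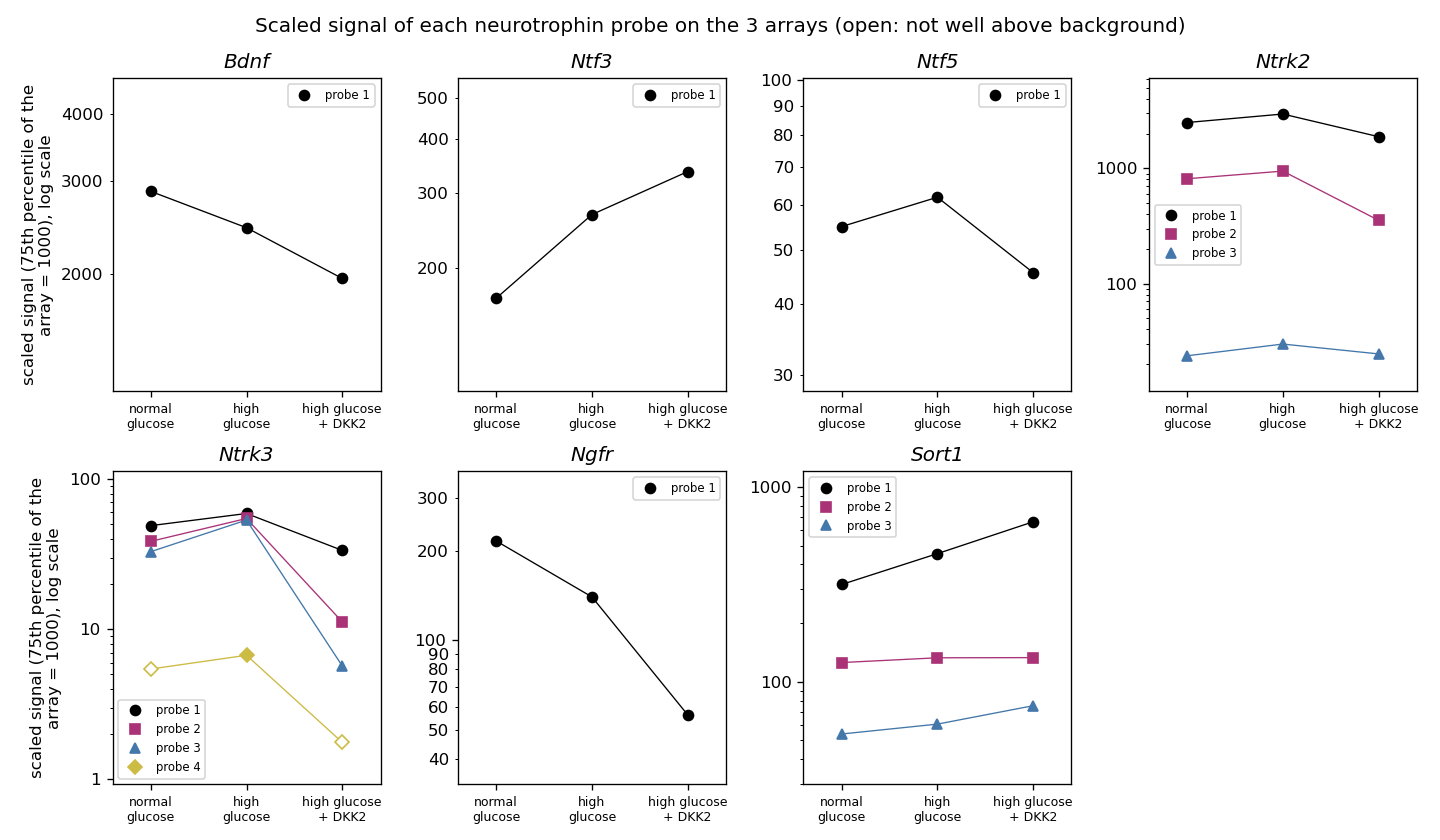
Scaled signal of every probe of the 7 genes on the 3 arrays, on a log axis (75th percentile of the array = 1000), with open symbols where a probe was not well above background. Probes are numbered from bright to dim within a gene; Ngfr goes from 215.3 to 139.8 to 56.3, and the Trk receptor probes are all lowest or near their lowest with DKK2.

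The effect of adding DKK2 in high glucose was then compared. Of the 13 probes of the 7 members measured on both arrays, 9 had differences below 0 and 4 above, and 4 were at least 2-fold lower and 0 higher. Over all 23389 named probes measured on both arrays, 42.6% were below 0 and 4.72% at least 2-fold lower. The 7 probes of Ntrk2, Ntrk3 and Ngfr were all below 0 and included the 4 that were 2-fold lower, while the 3 probes of Sort1 were at or above 0. Read on the brightest probe of each gene, 1 of the 7 members, Ngfr, was at least 2-fold lower and 0 were higher, where 4.85% of 17825 genes were at least 2-fold lower and 5.08% higher. The median of the members was -0.44 and that of all genes 0.08, and 5 of the 7 were below 0 and 2 above, against 42.4% and 57.6% of all genes. Probes of 1 gene are not independent.

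Ngfr was lower with DKK2 by a log2 difference of -1.31 (SD 0.21), or 2.48-fold, and 2.83% of genes had a lower value. With normexp it was -0.97, just under 2-fold. Against normal glucose the Ngfr difference was -1.93 (SD 0.21), or 3.82-fold, and with normexp -1.81.

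Ntrk3, the TrkC gene, read lowest with DKK2 on the 3 of its 4 probes that were measured on every array. The brightest probe, to accession NM_008746, read 49.0 in normal glucose, 59.0 in high glucose and 33.5 under DKK2, a difference of -0.82 (SD 0.21) between the last pair. A probe to NM_182809 read 38.5, 54.7 and 11.2 in the same order, a difference of -2.29 (SD 0.23) with DKK2 or 4.88-fold. The other probe to NM_182809 read 32.9, 53.4 and 5.70, a difference of -3.23 (SD 0.27) or 9.37-fold. The fourth probe passed the background filter on the high glucose array alone, with a lower bound of 2.04-fold on its fall with DKK2. That bound leaves out technical error: the difference of this probe had an SD of 0.66 and was -0.22 with normexp. The probes of Ntrk3 had the same direction, but the size depended on the probe. The probes to NM_182809 lay below the brightest probe, with gaps of -1.47 (SD 0.31) and -2.41 (SD 0.34). A range over probes at least as wide as that of Ntrk3 (2.41) occurred in 0.456% of the 658 genes with 3 measured probes, Ntrk3 included. Those genes were not matched for signal. The Ntrk3 probe that set the range had a signal before scaling of 13.8 under DKK2, where the lowest signal above background was 7.97. The signals were dim, and with normexp the 3 measured probes were at -0.41, -0.97 and -1.27.

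Ntrk2, the TrkB gene, also depended on the probe. The brightest probe, to NM_001025074, read 2492 in normal glucose, 2952 in high glucose and 1878 under DKK2, a difference of -0.65 (SD 0.20) or 1.57-fold. The probe to NM_008745 read 811.3, 944.7 and 354.0, a difference of -1.42 (SD 0.20) or 2.67-fold, which was -1.31 with normexp. The gap between these probes was -0.76 (SD 0.29) under DKK2 and -0.02 (SD 0.29) in the glucose comparison. TrkB is known to exist as a full-length kinase and as truncated forms that lack the kinase domain. Which form each probe reads was not analysed here. The dimmest probe, also to NM_001025074, with 10 spots per array, was at -0.28 (SD 0.21), with spots between 26.3 and 33.7 in high glucose and between 21.1 and 27.8 with DKK2. Those ranges overlap. A range over probes at least as wide as that of Ntrk2 (1.13) occurred in 9.88% of the 658 genes with 3 measured probes, Ntrk2 included and not matched for signal.

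**Figure D3:**
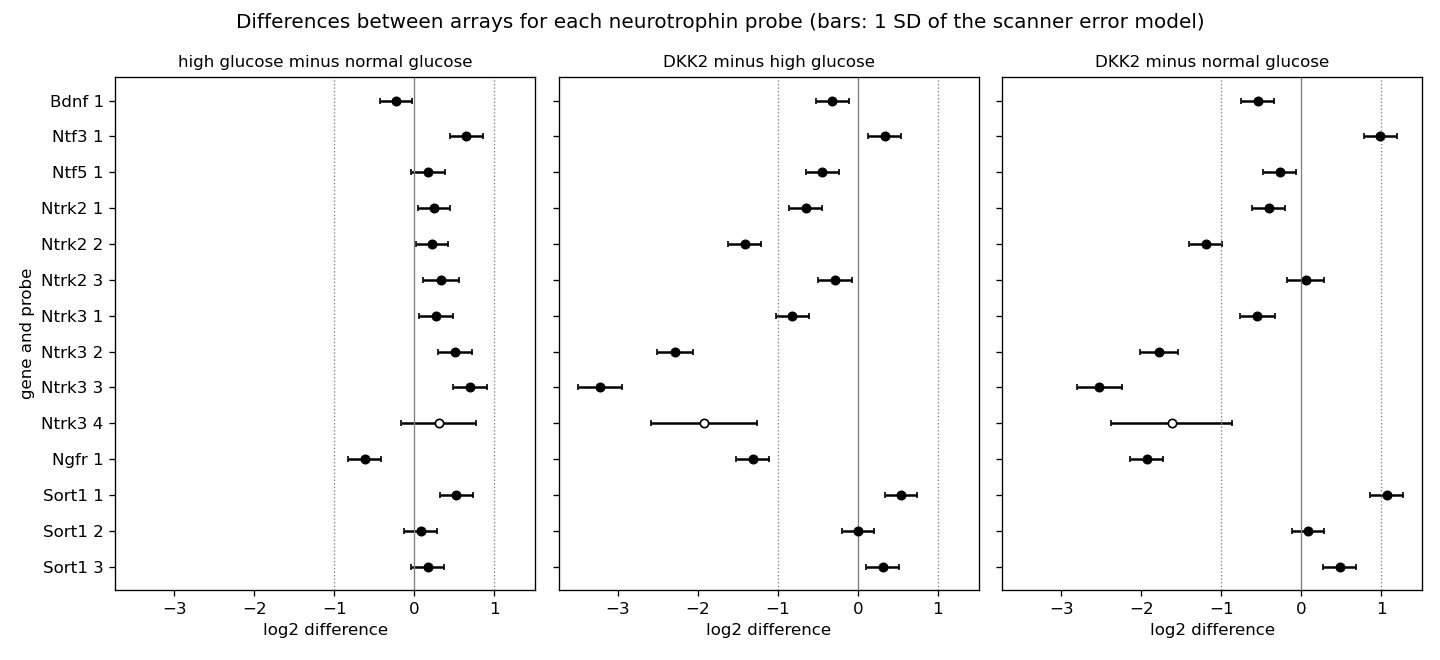
Log2 differences between arrays for each of the 14 probes, with bars of 1 SD of the scanner error model, open symbols where a probe was not well above background on both arrays, and dotted lines at 2-fold. With DKK2 against high glucose the Ntrk2, Ntrk3 and Ngfr probes lie below 0, from -0.28 to -3.23, while Ntf3 and the Sort1 probes lie at or above 0.

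None of the ligand genes was 2-fold apart under DKK2. Bdnf was at -0.32 (SD 0.20) with DKK2 against high glucose, Ntf5 at -0.44 (SD 0.21) and Ntf3 at 0.34 (SD 0.20). Ntf3 was the one ligand that read higher. The brightest Sort1 probe was at 0.54 (SD 0.20), the second NM_019972 probe at 0.31 (SD 0.20) and the NM_001271599 probe at 0.00 (SD 0.20). With normexp these were at 0.52, 0.25 and -0.06, and with quantile normalization the last was at -0.03.

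The last comparison, of DKK2-treated cells with normal glucose, shares both of its arrays with the others. Of the 7 members 1 was at least 2-fold higher, Sort1, and 1 at least 2-fold lower, Ngfr, where 10.5% of 16676 genes were higher and 10.4% lower. On the brightest probes 2 members were above 0 and 5 below, against 56.5% and 43.5% of all genes. Sort1 was at 1.07 (SD 0.20) or 2.10-fold on its brightest probe, but at 0.48 and 0.08 on the others, and with normexp those were both at -0.52 and the brightest at 0.80. Ntf3 was at 0.99 (SD 0.20), or 1.98-fold, and at 0.56 with normexp, which leaves it on the border of the 2-fold rule. Bdnf was at -0.54 (SD 0.20), Ntrk2 at -0.41 (SD 0.20), Ntf5 at -0.27 (SD 0.21) and Ntrk3 at -0.55 (SD 0.21), each on its brightest probe. The NM_008745 probe of Ntrk2 was at -1.20 and the NM_182809 probes of Ntrk3 were at -1.78 and -2.53. The dimmest Ntrk2 probe lay on the other side of 0, at 0.05 (SD 0.23), and was at -1.24 with normexp.

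Markers of other cells also differed between the arrays. In DKK2 against high glucose, 42.4% of all genes were below 0 and 57.6% above. All 8 fibroblast markers and all 9 smooth muscle and pericyte markers were below 0, with medians of -0.58 and -0.36. Their summed scaled signal went from 432039 to 308040 and from 60290 to 38373. Such sums rest mostly on the brightest probes: Dcn alone went from 209161 to 144275, and Acta2 from 21043 to 6603. Of the 10 Schwann cell and glia markers, a cell type known to carry p75, 9 were measured and 6 of those were below 0 (median -0.16, with Mbp, the myelin basic protein gene, at -0.77 and S100b at -0.54). The signals of that list summed to 16672 on the normal glucose array, 16754 on the high glucose array and 10041 under DKK2, most of it from Pmp22, and Cdh19 was above background in high glucose only. Sox10, the glial transcription factor gene, was at -0.16. Of 8 macrophage markers 7 were measured, and all 7 were above 0 (median 1.46). The neuron list, with all 10 measured, had a median of 0.06. Adipocyte markers had a median of -0.93 over 6 genes, with 4 below 0 and 2 above. The lowest was Adipoq at -6.20, or -4.18 with normexp, with a dim signal under DKK2 (28.7 before scaling). In the glucose comparison the medians were -0.14 for fibroblast, -0.0026 for smooth muscle and pericyte, 0.29 for Schwann cell and glia, 0.19 for macrophage, 0.04 for neuron and 0.23 for adipocyte markers. The part of these cells in the results above was not tested, and fewer cells of a type and less RNA per cell cannot be told apart.

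Genes that work with the 7 members were taken from lists of textbook members. Over all genes with DKK2 against high glucose, 42.4% were below 0, 4.85% at least 2-fold lower and 5.08% at least 2-fold higher. In high glucose against normal glucose, 5.73% were at least 2-fold lower and 2.67% at least 2-fold higher. Of the 4 VPS10 sorting receptors related to sortilin, 3 were measured, and all 3 read lower with DKK2 against high glucose, with 1 at least 2-fold lower. Sorcs2, whose product can also pair with p75, read 629.6 in normal glucose, 449.3 in high glucose and 129.8 under DKK2, a difference of -1.79 (SD 0.20; -0.55 on its other probe). Sorcs1 read 404.3, 188.4 and 115.7, at -1.10 for glucose and -0.70 for DKK2 (-2.36 on its other probe), and was the one list member at least 2-fold lower in high glucose. Sort1 itself read higher in both comparisons on its brightest probe.

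Of 7 genes of proneurotrophin processing and BDNF cleavage, 6 were measured with DKK2, and 1 was at least 2-fold lower and 0 higher. That gene was Pcsk6, a proprotein convertase gene, which read 2086 in normal glucose, 3789 in high glucose and 1797 under DKK2, at 0.86 and then -1.08 (SD 0.20). Furin, the main intracellular convertase, was at -0.38 for glucose and 0.22 for DKK2, and Plat, the tissue plasminogen activator gene whose protease leads to proBDNF cleavage, at 0.67 and 0.01.

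Of 14 co-receptors and adaptors of p75, 2 were at least 2-fold lower and 0 higher in high glucose, and 1 was lower and 1 higher with DKK2. Rtn4r, the Nogo receptor gene, read 136.5 in normal glucose, 47.0 in high glucose and 40.8 under DKK2, at -1.54 (SD 0.21) for glucose. Maged1, whose product binds the intracellular part of p75, was at -1.02 (SD 0.20; -0.87 with normexp) for glucose. Tnfrsf19, a relative of p75, was at -1.48 (SD 0.21) with DKK2, but its other probe was at 0.28. Bex1, a p75-binding protein gene, was at 1.03 (SD 0.20) with DKK2, at 0.84 with normexp, and its other probe was at 0.37. The list medians were -0.11 for glucose and 0.13 for DKK2.

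Of 17 adaptors and effectors of Trk receptors, 0 were 2-fold apart in the glucose comparison. With DKK2 against high glucose, where 4.85% of all genes were at least 2-fold lower, 1 of the 17 was. It was Irs1, an insulin receptor substrate gene, at -1.21 (SD 0.20; -0.72 on its other probe), which read 7018 in normal glucose, 8947 in high glucose and 3876 under DKK2. Shc2, an adaptor gene of Trk receptors in neurons, was at 1.12 with DKK2 against normal glucose (0.97 with normexp, and 0.62 on its other probe). It was the 1 member at least 2-fold higher there, against 10.5% of all genes. The list medians were 0.29 for glucose and 0.02 for DKK2, where those of all genes were 0.09 and 0.08.

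Of 11 genes known to be induced by neurotrophins in neurons, 1 was at least 2-fold higher in high glucose and 1 at least 2-fold lower with DKK2. Spry2, a feedback inhibitor gene of receptor tyrosine kinase signalling, was at 1.22 (SD 0.21) for glucose but at 0.33 with normexp. Npy, the neuropeptide Y gene, read 540.8, 291.2 and 114.3, at -0.89 for glucose and -1.35 (SD 0.20) for DKK2. Arc, an immediate early gene of synapses, read 1074, 587.6 and 327.5 and was at -0.87 and -0.84. The list median with DKK2 was -0.18, with 8 of 11 below 0, against 42.4% of all genes. Some lay within their technical SD: Dusp6 at -0.05 (SD 0.20), Vgf at -0.18 (SD 0.21) and Homer1 at -0.10 (SD 0.20). So did Fos above 0, at 0.12 (SD 0.20). The mean of Homer1 over its 5 measured probes was 0.59. These counts are small, and no list was tested against other lists.

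**Figure D4:**
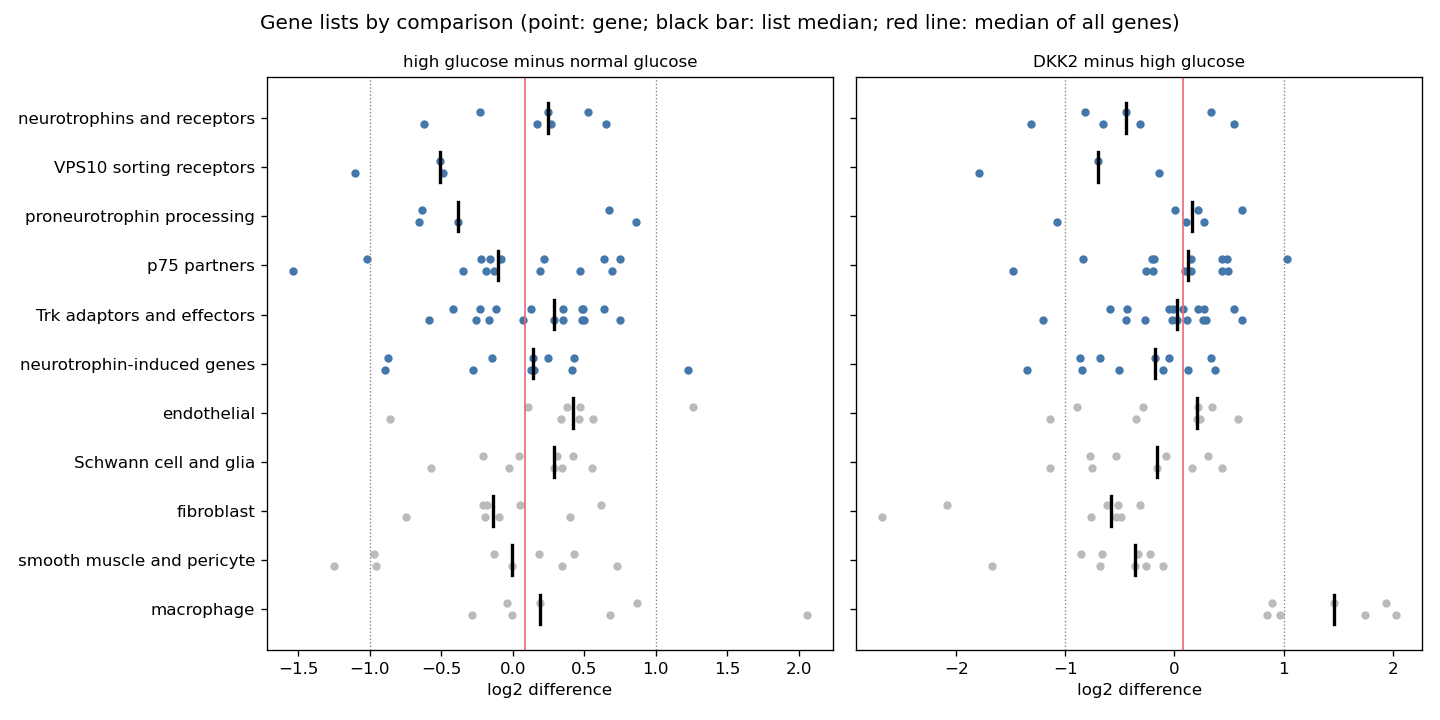
Log2 differences of the genes of the lists shown between high and normal glucose and between DKK2 and high glucose (point, gene; black bar, list median; red line, median of all genes; dotted lines, 2-fold). The neuron and adipocyte lists are not drawn. With DKK2 the 7 neurotrophin genes have a median of -0.44, the fibroblast markers -0.58 and the macrophage markers 1.46.

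Genes of like pattern were sought among 11726 genes well above background with a signal of at least 100 on all arrays, by the distance over the glucose and the DKK2 differences (2 values from 3 arrays). The nearest to Ngfr were Plac9a, at -0.60 and -1.34, and Atoh8, a basic helix-loop-helix transcription factor gene, at -0.63 and -1.28. In all, 26 genes lay within the technical SD of Ngfr, so the 2 named were not set apart from the rest. The nearest to Sort1 were Acot13, a thioesterase gene, and Qars, a glutaminyl-tRNA synthetase gene, each within 0.011 of it, but 335 genes lay within its technical SD, so that its pattern did not single out any gene.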

How the data were processed

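Per the labels, each of the 3 Cy3 arrays held pooled RNA (3 samples), and the titles gave the groups. Per the file headers, spots were quantified with Feature Extraction 11.5.1.1 as intensity on a linear scale, corrected for background. The deposited value table holds the same intensity as a mean over spots, with no log or scaling: at least 99.8% of probes matched within a fraction of 0.001.

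Control spots (1377 per array) and 110, 115 and 136 outlier spots were left out, and no spot was saturated. Values are log2 of the processed signal, averaged over the spots of a probe, minus the 75th percentile of the array. A probe counted as well above background if 50% or more of its spots were. The files hold no gene names, so probes took their names from transcript accessions in the RefSeq table, whose assembly differs from that of the headers. In all, 27508 probes matched 1 symbol and 11921 are not named here. A gene was read on whichever of its probes was brightest, if above background on at least 1 array, and all probes of the members are given. A bound was set against the higher of the lowest signal above background and the dim probe's own. Other genes of the neurotrophin family are not reported here.

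The members, lists and rules were chosen with earlier results of these data known. Named list genes are those at least 2-fold apart in any comparison with a signal of at least 100 on 1 array, at most 4 per list; other genes named from the lists were chosen after their values were seen. With 1 array per group there was no test. Alternatives were normexp (offset 50, on the median signal and local median background, since the files hold no mean signal), quantile normalization, median scaling, no filter or a minimum signal of 100 on each array, the deposited table, the mean of a gene's probes, and rules of 1.5-fold and 3-fold. The counting was tested on simulated data. Python 3.11.15 (numpy 2.4.6, pandas 2.3.3, matplotlib 3.10.9) and R 4.3.3 (limma 3.58.1) were used.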

Additional observations from a re-analysis of the deposited data

How the results depend on the processing

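Each of the 21 differences (7 genes, 3 comparisons) was recomputed under up to 7 alternatives, 141 values in all. Those without a filter or with the stricter filter use the same probe value, the deposited table holds the same intensities and the mean over probes is fixed for the 4 genes with 1 probe, so these could show little change. Normexp moved 12 of 21 differences by more than 1 technical SD and the mean over probes 6 of 21, while quantile normalization and median scaling moved 0. There were 2 changes of sign: with normexp the glucose differences of Ntf5 and Ntrk3 were -0.86 and -0.89. Normexp adds a fixed offset, which counts for more where an array is dim, as in normal glucose, and moved the median of all genes in the glucose comparison from 0.09 to -0.26 and in DKK2 against normal glucose from 0.12 to -0.25. It also moved the count of all genes at least 2-fold higher or lower in high glucose from 448 and 960 to 171 and 3945. For Ntrk3 the mean over probes was -2.11 with DKK2 against high glucose, where the brightest probe was at -0.82. The stricter filter left Ntf5 and Ntrk3 without a value.

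In high glucose against normal glucose, 0 members were higher and 0 lower, and with the 1.5-fold rule 1 was higher and 1 lower. In DKK2 against high glucose 1 member was lower, against 0 with normexp, 2 with the mean over probes, 3 with the 1.5-fold rule and 0 with the 3-fold rule. In DKK2 against normal glucose 1 member was higher, against 0 with normexp, 2 with quantile normalization, 0 with the mean over probes, 2 with the 1.5-fold rule and 0 with the 3-fold rule. There 1 member was lower, against 3 with normexp and 2 with the mean over probes. The cause of these shifts was not tested beyond the construction of normexp. No paired analysis was possible because there was 1 array per condition. Leaving out a replicate was not possible for the same reason. Signal over background limits Ntf5 and Ntrk3, whose probes had signals of at most 147.4 on any array. It also bears on Ngfr, with a signal of 136.3 on the DKK2 array. The dimmest Ntrk2 probe is limited too, with its highest signal, 71.4, in high glucose.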
